A study of Mus musculus with 8 samples.

Results

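The 8 arrays of mouse bone marrow macrophages were compared here by the number in their titles, not by their genotype label. The first set held the 4 libraries titled VAV ko 1, VAV ko 2, control 1 and control 2, and the second set held the 4 titled VAV ko 3, VAV ko 4, control 3 and control 4, which together are all 8 libraries of the series. The libraries labelled VAV ko came from vav1-/- mice and those labelled control from WT mice, with C57BL/6 given as the strain for all 8. Male and female mice of 7 to 12 weeks were used. Each set held 2 libraries of each label, so a difference between the sets cannot follow the label. The grouping was chosen from measured values of these same libraries, which part by title number in a small group of genes. The set differences below are therefore a description and carry no test. The tests reported are those of the label, which the grouping did not use. Nothing in the labels says what the title numbers stand for, nor which libraries came from separate mice, so the p-values below reflect how these libraries vary, which may be technical.

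Macrophages grown from bone marrow take up particles, carry receptors for the constant part of antibodies and can display peptides on MHC class II molecules. Vav1 is an exchange factor that acts in blood cells, downstream of receptors whose signalling chains carry an immunoreceptor tyrosine-based activation motif (ITAM). One such chain is the common gamma chain, encoded by Fcer1g, which several activating Fc receptors need to reach the cell surface and to signal. MHC class II molecules are pairs of an alpha and a beta chain, guided to their loading compartment by the invariant chain Cd74.

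Of 7982 named genes, 24 (0.301%) had a gap of at least 2-fold between the sets, meaning that the lowest intensity in the higher set was at least 2 times the highest intensity in the lower set. Of these, 20 (0.251%) were higher and 4 (0.0501%) were lower in the first set. Fcer1g, H2-Aa, Abhd16a, Pisd-ps3 and Psmd8 had the widest gaps among those higher in the first set, and Hal the widest among those lower. Without control 4, 30 genes (0.376%) had such a gap, 24 higher and 6 lower in the first set, and these hold the 24 genes of the 8 libraries by construction, since leaving out a library can only widen a gap. No gap of this size separated VAV ko from control within the first set (0 genes) or within the second set (0 genes), nor number 1 from number 2 (0 genes) or number 3 from number 4 (0 genes). Split by label, 39 genes were parted between VAV ko 1 and 2 and VAV ko 3 and 4, and 30 between control 1 and 2 and control 3 and 4. Of these, 26 were parted in both labels in the same direction. The 24 genes with a gap over 8 libraries are among the 39, the 30 and the 26 by construction.

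The libraries labelled VAV ko and control did not differ in the targeted gene in the way the label says, so label names below are those of the titles. Vav1 had an intensity of 1805 in VAV ko 1, 1699 in VAV ko 2, 1825 in control 1 and 1642 in control 2, against 308 in VAV ko 3, 288 in VAV ko 4, 267 in control 3 and 384 in control 4. All 4 libraries of the first set were high and all 4 of the second set low, with no library in between. The means were 1743 ± 86.9 in the first set and 312 ± 51.1 in the second (SD, n = 4 each), a log2 difference of 2.59 (SE 0.13) after background correction. Between the labels, Vav1 differed by -0.05 (log2, VAV ko minus control, 95% confidence interval -0.39 to 0.29, limma adjusted p = 0.889). Its relatives differed less between the sets. Vav2 was lower in the first set with no overlap, averaging 593 ± 59.6 there and 716 ± 49.9 in the second set. Vav3 overlapped and averaged 1120.2 ± 87.7 in the first set and 1083 ± 71.2 in the second.

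**Figure D1:**
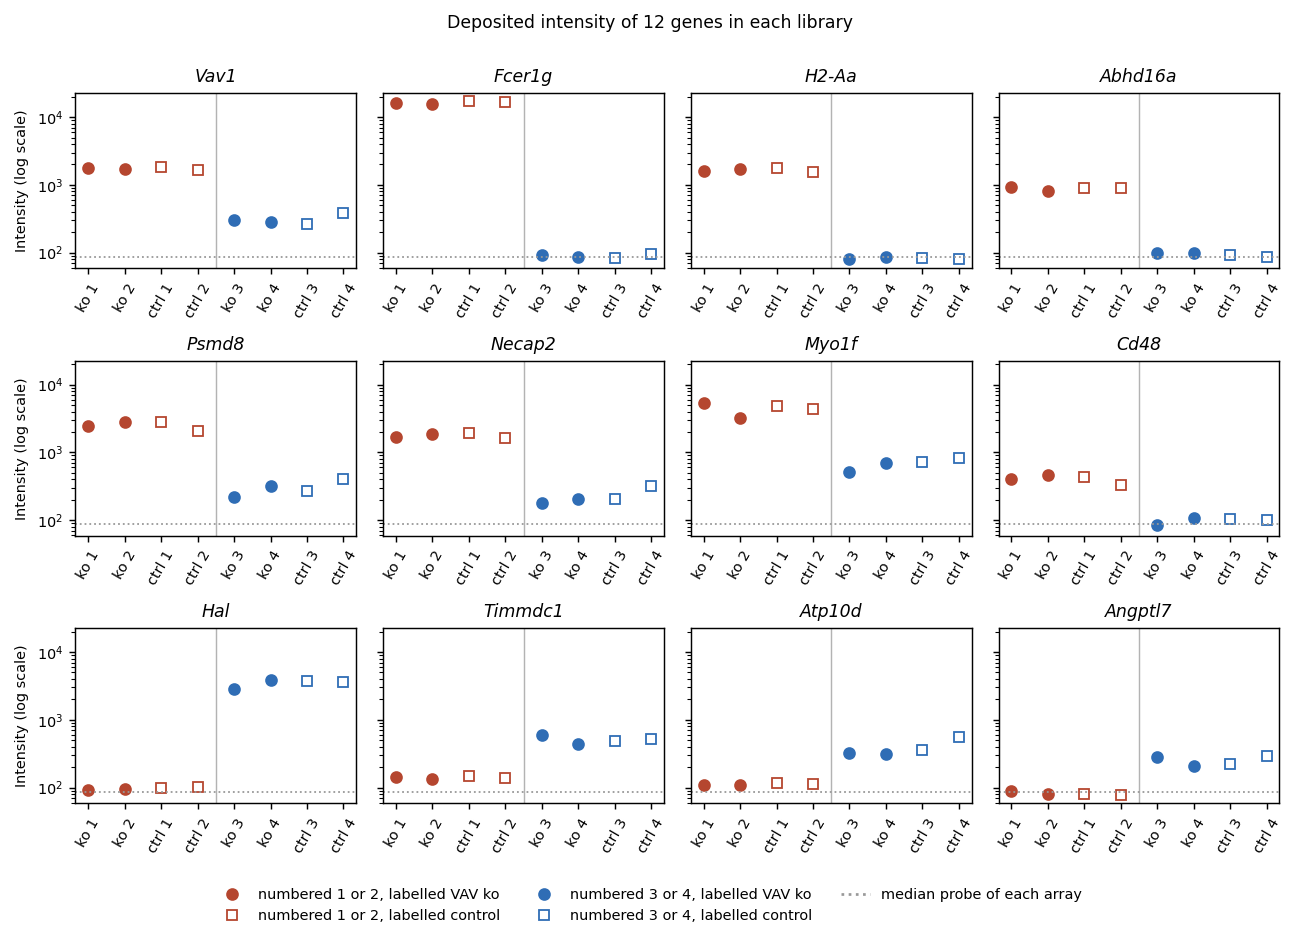
Deposited intensity (log scale) of 12 genes with a gap of at least 2-fold, 1 panel per gene and 1 point per library. Red points are libraries numbered 1 or 2 and blue points those numbered 3 or 4, with filled circles for VAV ko and open squares for control, and the dotted line is the median probe of each array (86.2). In each panel the 4 red points lie on one side of the 4 blue points, as for Vav1 at 1642 to 1825 against 267 to 384.

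Fcer1g had the widest gap in deposited intensity. It reached 16381 in VAV ko 1, 15634 in VAV ko 2, 17180.1 in control 1 and 16782 in control 2, against 91.0 in VAV ko 3, 84.9 in VAV ko 4, 83.9 in control 3 and 96.4 in control 4. The second set lay at about the level of the median probe of each array, which was 86.2, while the first set stood among the bright probes. The closest libraries of the sets stood 162-fold apart in deposited intensity. For a gene at the level of the median probe in one set, such a ratio or log2 difference is set by the background there and is only a bound. The same holds for H2-Aa, Hal, Abhd16a, Pisd-ps3, Pdxdc1 and other genes with one set near 86.2. Of the Fc receptor list, 6 of 11 genes were measured. Of these 6, 1 was higher and 1 lower in the first set with no overlap over 8 libraries, and 1 was higher and 4 lower without control 4. Over all genes, 625 (7.83%) had no overlap between the sets over 8 libraries, 330 (4.13%) higher and 295 (3.7%) lower in the first set. Without control 4 the count was 1162 (14.6%), 636 (7.97%) higher and 526 (6.59%) lower.

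Among the IgG receptor chains, Fcgr4 was lower in the first set in every library, and Fcgr3, Fcgr2b and Fcgr1 were lower there than in VAV ko 3, VAV ko 4 and control 3. Fcgr3, a low-affinity receptor for IgG, had 3343 in VAV ko 1, 3245 in VAV ko 2, 3108 in control 1 and 3056 in control 2, against 7662 in VAV ko 3, 6923 in VAV ko 4, 7347 in control 3 and 2976 in control 4. Control 4 lay below the first set, so the sets overlapped over 8 libraries and had a gap of 2.07-fold only without it. Fcgr4, another activating IgG receptor, ranged from 2329 to 2754 in the first set and from 4469 to 5545 in the second, with no overlap. Fcgr2b, the inhibitory IgG receptor, ranged from 651 to 796 in the first set, against 1448 to 1626 in VAV ko 3, VAV ko 4 and control 3 and 615 in control 4. Fcgr1, the high-affinity IgG receptor, ranged from 384 to 537 in the first set, against 562 to 584 in the second set without control 4 and 341 in control 4. Fcgrt, which carries IgG across cells, overlapped. The median log2 difference over the 6 genes was -0.53, and -0.65 without control 4, beside -0.01 and -0.01 over all genes.

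Tyrobp, an adaptor with the same kind of signalling motif as the common gamma chain, overlapped between the sets, with 3861 to 4824 in the first set and 2377 to 4526 in the second. None of the 18 measured genes of the ITAM kinase and adaptor list was free of overlap, with or without control 4 (0 of 18). Over all genes the shares with no overlap were 7.83% and 14.6% without control 4. Syk, the kinase that binds such motifs, ranged from 212 to 255 in the first set and from 195 to 255 in the second. Among receptors that pair with either adaptor, 9 were measured and 3 were higher in the first set with no overlap, and without control 4 Pira2, an activating immunoglobulin-like receptor, was lower as well. Trem2, a lipid-sensing receptor, had 7132 to 7972 in the first set and 5743 to 6423 in the second, and Clec4e, a receptor for fungal and bacterial glycolipids, had 123 to 129 in the first set and 98.4 to 122 in the second. Cd300ld, of the CD300 receptor family, had 1372 to 1418 in the first set, against 611 in VAV ko 3, 582 in VAV ko 4, 157 in control 3 and 725 in control 4. Its second set was the more spread of the sets.

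Of the lists examined, MHC class II presentation held the most genes with a 2-fold gap, 4. Of 11 measured genes of this list, 7 were higher and 1 was lower in the first set with no overlap. The counts were the same without control 4, beside shares over all genes of 7.83% and 14.6%. A 2-fold gap was met by 0.301% of all genes. H2-Aa, the alpha chain of the I-A molecule, had 1616 in VAV ko 1, 1743 in VAV ko 2, 1804 in control 1 and 1571 in control 2, against 81.2 in VAV ko 3, 86.7 in VAV ko 4, 83.4 in control 3 and 80.4 in control 4. As for Fcer1g, the second set lay near the median probe. H2-Ab1, the beta chain that joins it, had 999 in VAV ko 1, 1188 in VAV ko 2, 1163 in control 1 and 1418 in control 2, against 344 in VAV ko 3, 203 in VAV ko 4, 261 in control 3 and 236 in control 4. So the partner chain was low in the second set but above the median probe. All 3 kept probes of H2-Ab1 were higher in the first set with no overlap, with log2 differences of 2.31, 1.69 and 1.66.

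H2-Eb1, a beta chain of the I-E molecule, had 488 in VAV ko 1, 569 in VAV ko 2, 547 in control 1 and 626 in control 2, against 215 in VAV ko 3, 186 in VAV ko 4, 201 in control 3 and 180.3 in control 4. Cd74, the invariant chain, had 1640.5 in VAV ko 1, 1589 in VAV ko 2, 1484 in control 1 and 1927 in control 2, against 621 in VAV ko 3, 415 in VAV ko 4, 505 in control 3 and 311 in control 4. All 3 of its kept probes were higher in the first set with no overlap, with log2 differences of 1.94, 1.91 and 1.10. H2-DMb2 overlapped, at 240 to 379 in the first set and 79.3 to 295 in the second. H2-DMa and H2-DMb1, chains of the complex that loads peptide, were higher by 1.05 and 0.43 on the log2 scale. Cd40, a co-stimulatory receptor, was higher by 0.52. Without control 4 these differences were 0.71, 0.33 and 0.51. H2-DMa had 106 in control 4, beside 226 to 261 in the rest of the second set. Cd86, a ligand that co-stimulates T cells, was the member lower in the first set, with 193 to 212 against 233 to 294 in the second set. Ctss, the protease that trims the invariant chain, overlapped. The median log2 difference of the 11 genes was 0.72, and 0.51 without control 4.

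The promoters of 2 class II genes, of the targeted gene Vav1 and of Fcer1g, which had the widest gap in deposited intensity, are shown. Each runs from 250 bases before to 50 after the start of the gene as RefSeq gives it on GRCm38.p6, 5′ to 3′ on the gene's strand, and both strands were searched. Capitals mark ATTGG or its reverse CCAAT in the class II promoters, which is the core of the Y box bound by NF-Y, and GAGGAA or its reverse TTCCTC in the other pair, which is the core bound by the macrophage factor PU.1. H2-Aa lies at chr17:34287774-34288073 on the minus strand, H2-Eb1 at chr17:34305617-34305916 on the plus strand, Vav1 at chr17:57278850-57279149 on the plus strand and Fcer1g at chr1:171234300-171234599 on the minus strand.
H2-Aa: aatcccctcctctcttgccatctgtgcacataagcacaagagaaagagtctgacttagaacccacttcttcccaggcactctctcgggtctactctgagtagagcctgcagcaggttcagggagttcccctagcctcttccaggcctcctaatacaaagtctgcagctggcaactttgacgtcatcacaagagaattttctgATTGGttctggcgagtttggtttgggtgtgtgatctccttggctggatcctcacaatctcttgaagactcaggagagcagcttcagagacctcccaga
H2-Eb1: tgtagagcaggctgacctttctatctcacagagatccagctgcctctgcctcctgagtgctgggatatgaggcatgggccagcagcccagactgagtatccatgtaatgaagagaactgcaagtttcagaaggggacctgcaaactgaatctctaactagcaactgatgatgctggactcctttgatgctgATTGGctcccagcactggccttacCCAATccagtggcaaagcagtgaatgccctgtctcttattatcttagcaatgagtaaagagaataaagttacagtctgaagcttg
Vav1: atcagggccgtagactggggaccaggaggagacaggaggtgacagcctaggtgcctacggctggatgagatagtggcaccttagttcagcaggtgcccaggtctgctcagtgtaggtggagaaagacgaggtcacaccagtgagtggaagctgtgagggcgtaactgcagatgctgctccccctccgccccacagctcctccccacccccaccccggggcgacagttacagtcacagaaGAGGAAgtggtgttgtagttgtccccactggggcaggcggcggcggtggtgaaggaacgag
Fcer1g: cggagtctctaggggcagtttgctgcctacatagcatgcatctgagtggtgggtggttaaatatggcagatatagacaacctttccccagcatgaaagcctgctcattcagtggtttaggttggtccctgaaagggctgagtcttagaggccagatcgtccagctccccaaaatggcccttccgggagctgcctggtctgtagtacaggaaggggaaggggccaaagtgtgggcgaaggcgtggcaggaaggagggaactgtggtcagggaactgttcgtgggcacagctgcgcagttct
The matches do not overlap each other. The H2-Aa window held 1 match, the H2-Eb1 window 2, the Vav1 window 1 and the Fcer1g window 0. Among 32851 promoters of the same length, 37.4% held ATTGG or CCAAT and 28.3% held GAGGAA or TTCCTC. Of the 24 genes, 18 had a promoter in the table, and 6 and 5 of them held the first and the second motif.

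Class I molecules display peptides from inside the cell. Of 18 measured genes, 3 were higher and 0 lower in the first set with no overlap, and 3 were higher and 3 lower without control 4. Beside these stand shares of 7.83% and 14.6% over all genes. Psmb9, a subunit of the immunoproteasome, had 541 to 639 in the first set and 203 to 294 in the second. Tap1, which moves peptides into the endoplasmic reticulum, had 118 to 144 in the first set and 79.4 to 112 in the second. B2m, the light chain shared by class I molecules, overlapped at 13208 to 16929 in the first set and 14030.3 to 16782 in the second. H2-Q6, H2-Q7 and H2-Q8, class I heavy chains that are close in sequence and may share signal, were the 3 lower without control 4.

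Hal, the enzyme of the first step of histidine breakdown, was the widest of the 4 genes lower in the first set. It had 91.5 in VAV ko 1, 96.6 in VAV ko 2, 96.9 in control 1 and 101 in control 2, against 2862 in VAV ko 3, 3815 in VAV ko 4, 3769 in control 3 and 3612 in control 4. A second probe of Hal averaged 82.1 in the first set and 3020.0 in the second, so both probes were near the median probe in the first set. Amdhd1, a later enzyme of the same pathway and the next measured gene along the chromosome, was dim, with 91.1 to 94.7 in the first set and 120.4 to 182 in the second. Of 5 measured genes for the breakdown of histidine, arginine and tryptophan, these 2 were lower with no overlap and 0 were higher. The share of all genes with no overlap was 7.83%. Odc1, which turns ornithine into putrescine, overlapped at 1198 to 1691 in the first set and 1203 to 1547 in the second.

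The other 3 genes lower in the first set were dimmer. Timmdc1, an assembly factor of mitochondrial complex I, ranged from 133 to 149 in the first set and from 438 to 590.4 in the second. Atp10d, a lipid-flipping ATPase, ranged from 108 to 116 in the first set and from 317 to 553 in the second, with its highest value in control 4. Angptl7, a secreted protein of the angiopoietin-like family, ranged from 76.9 to 88.2 in the first set and from 210.3 to 292 in the second. Akap2, which anchors protein kinase A, joined them only without control 4: it had 151 to 172 in the first set, against 424 to 509 in VAV ko 3, VAV ko 4 and control 3 and 235 in control 4.

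**Figure D2:**
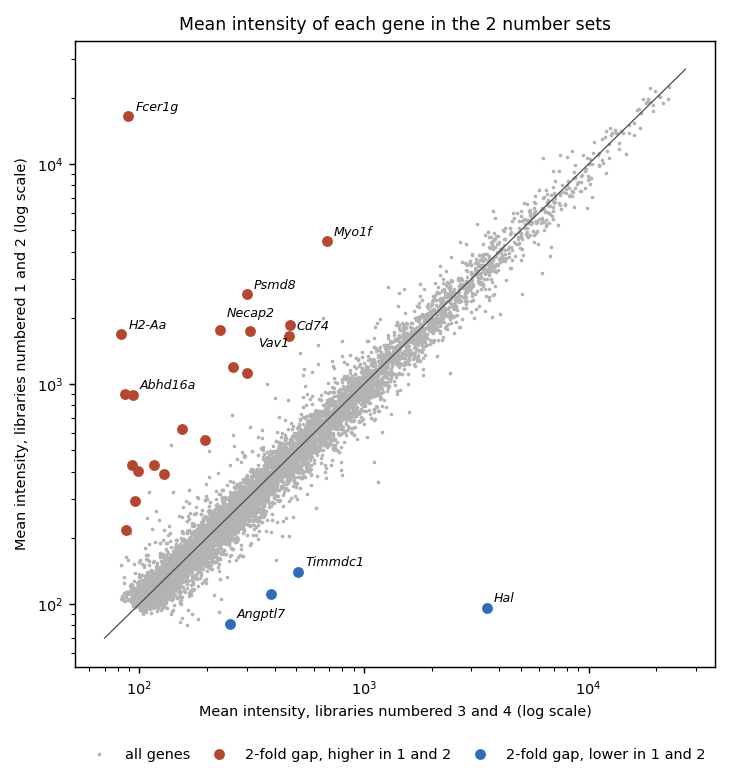
Mean intensity of each of 7982 genes in the libraries numbered 1 and 2 (vertical, log scale) against that in the libraries numbered 3 and 4 (horizontal, log scale). Red points are the 20 genes with a 2-fold gap that were higher in the first set and blue points the 4 that were lower, and the line marks equal means. Fcer1g lies at 16494 against 89.0 and Hal at 96.4 against 3515.

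Among genes of protein turnover and membrane traffic, Psmd8, a subunit of the proteasome's regulatory particle, had 2476 in VAV ko 1, 2821 in VAV ko 2, 2841 in control 1 and 2090 in control 2, against 218 in VAV ko 3, 315 in VAV ko 4, 268 in control 3 and 402 in control 4. Necap2, which acts in clathrin-coated vesicles, had 1672 in VAV ko 1, 1843 in VAV ko 2, 1908 in control 1 and 1644 in control 2, against 179 in VAV ko 3, 205 in VAV ko 4, 204 in control 3 and 323 in control 4. In both genes control 4 was the highest of the second set and still far below the first. A second kept probe of Necap2 averaged 822 in the first set and 629 in the second and overlapped, with a log2 difference of 0.45 beside 3.13 for the brighter probe. Abhd16a, a lipase of phosphatidylserine, had 823 to 942 in the first set and 85.1 to 98.4 in the second.

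Probes named for relatives of phosphatidylserine decarboxylase were also parted. Pisd-ps3 had 627 to 1254 in the first set and 81.9 to 90.1 in the second, and Pisd-ps1 had 232 to 389 in the first set and 88.1 to 99.4 in the second. These are near-identical copies, so the probes may not tell them apart. A second kept probe of Pisd-ps3 overlapped between the sets, with a log2 difference of 0.22. Pdxdc1 had 407 to 453 in the first set and 89.6 to 96.9 in the second on its brightest probe. Of its 5 kept probes, this one and another (log2 difference 2.40) had a gap of over 2-fold, a further probe was higher by 0.85 with overlap, and the last 2 differed by -0.48 and -0.79 with overlap. Without control 4 these last 2 were lower in the first set with no overlap, by gaps of 1.15-fold and 1.85-fold, so the probes of this gene disagree. Across the 24 genes, 17 had 1 kept probe and 7 had several. Of the 12 further kept probes, 10 went the same way and 4 of these had a 2-fold gap.

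Myo1f, a single-headed myosin of white blood cells, had 5391 in VAV ko 1, 3257 in VAV ko 2, 4807 in control 1 and 4397 in control 2, against 505 in VAV ko 3, 685 in VAV ko 4, 713 in control 3 and 823 in control 4. Of the other unconventional myosins, Myo1e, another single-headed myosin, overlapped at 2282 to 2519 in the first set and 1841 to 2297 in the second, and Myo9a was lower in the first set with no overlap. The 11 measured myosins thus held 1 higher and 1 lower with no overlap, and 3 higher and 1 lower without control 4. The shares over all genes were 7.83% and 14.6%. Fblim1, which links filamin to adhesion sites, had 1460.5 to 2049 in the first set and 402 to 578 in the second. Pdpn, a membrane mucin that binds the platelet receptor CLEC-2, had 416 to 455 in the first set and 109 to 124 in the second. Cd48, an adhesion ligand of the SLAM family, had 324 to 458 in the first set and 85.3 to 107 in the second.

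Of 18 measured actin and podosome genes, 3 were higher and 0 lower in the first set without control 4, and 1 was higher and 0 lower over 8 libraries: Coro1a, an actin-binding protein of leukocytes, at 2187 to 3029 in the first set and 480.04 to 1623 in the second. Of 15 integrin and adhesion genes, Itgb7 and Icam1 were higher and 0 were lower, with and without control 4. Both lists stand beside shares of 7.83% and 14.6% over all genes, and the actin counts lie near these shares. Icam1, a ligand of leukocyte integrins, had 382 to 504 in the first set and 199 to 325 in the second.

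The remaining genes with a 2-fold gap were all higher in the first set. Col18a1, a basement membrane collagen, had 563 to 668 in the first set and 138 to 173 in the second, and Prr33 had 935 to 1460.5 in the first set and 256 to 342 in the second. Prkag2, a regulatory subunit of AMP-activated kinase, had 206 to 237 in the first set and 79.1 to 99.5 in the second. D17H6S56E-5 had 313 to 443 in the first set and 111 to 143 in the second. Just inside the threshold stood Prkag2 with a gap of 2.07-fold, and just outside it Serinc3 with 1.99-fold, Itgb7 with 1.97-fold and Tbc1d2, lower in the first set, with 1.90-fold. In 8 of the 24 genes all libraries of one set lay under 100, so they passed the intensity minimum only through the other set. Without control 4, Mrps12 (2.69-fold), Cd300ld (2.25-fold) and Gdf3 (2.22-fold) were also higher in the first set, and Akap2 (2.46-fold) and Fcgr3 (2.07-fold) also lower. A mean difference of at least 2-fold with no overlap was met by 69 genes (0.864%), and by 60 without control 4.

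**Figure D3:**
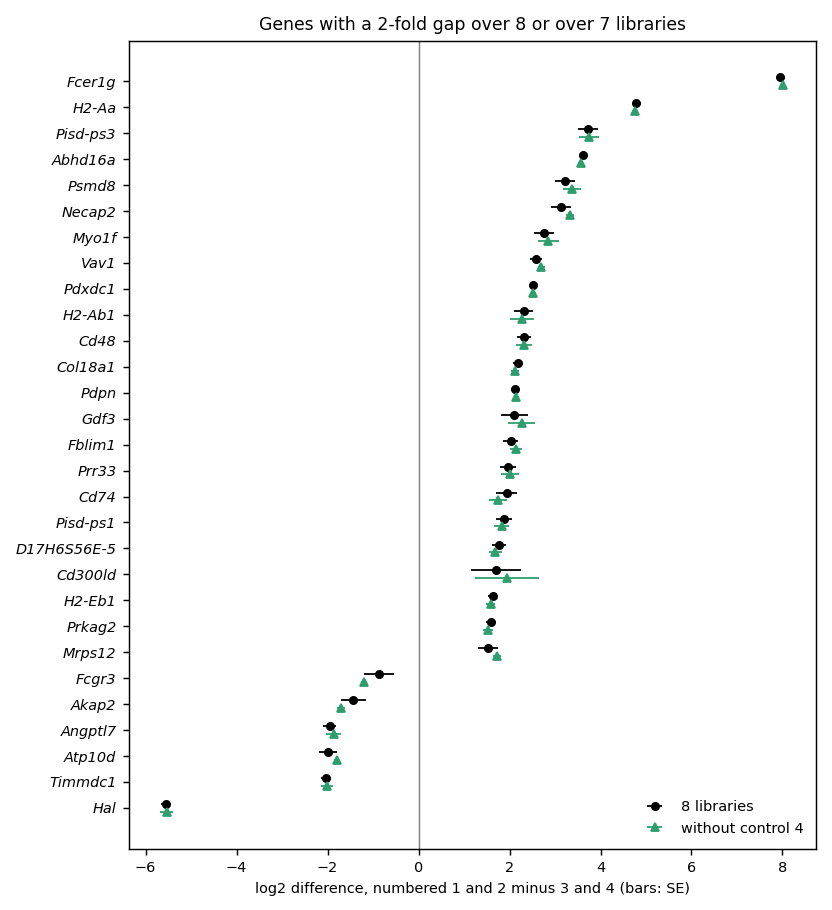
Log2 difference, libraries numbered 1 and 2 minus those numbered 3 and 4, for each named gene with a 2-fold gap over 8 or over 7 libraries. Black circles use 8 libraries and green triangles leave out control 4, with bars of 1 standard error. The values run from 7.95 for Fcer1g to -5.55 for Hal, both of them bounds because one set lies near the median probe, and Fcgr3 and Akap2 lie farther from 0 without control 4.

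Secreted signals and their kin were spread over both directions, with more higher than lower. Of 16 measured inflammatory cytokine and chemokine genes, 6 were higher and 1 lower in the first set with no overlap. Without control 4, 7 were higher and 2 lower. Shares over all genes were 7.83% and 14.6%. The median log2 difference was 0.34, and 0.22 without control 4. Il1rn, the antagonist of the interleukin-1 receptor, had 481 to 598 in the first set and 222 to 317 in the second. Ccl2 and Ccl7, which draw in monocytes, had 921 to 1080.0 and 3198 to 3698 in the first set, against 402 to 689 and 2024 to 2605 in the second. Ccl9, another chemokine, was brighter, at 10020 to 12264 in the first set and 6373 to 8288 in the second. Il18, which induces interferon gamma in lymphocytes, was the member lower in the first set, with 222 to 254 against 298 to 344 in the second set. Ccl3 and Ccl4 overlapped. Of 5 measured genes of the NADPH oxidase, 1 was higher and 0 were lower, with and without control 4. It was Ncf4, a cytosolic subunit, at 1263 to 1453 in the first set and 947 to 1014 in the second.

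Lipid genes lay in both directions. Apoe, the carrier protein of lipoproteins, had 1533 to 2363 in the first set and 210.0 to 896 in the second, where its lowest value was in control 4. Fabp5, a fatty acid carrier, was lower in the first set, with 2171 to 2652 against 2738 to 5364 in the second set. Of 15 measured genes of cholesterol and lipid handling these were the 1 higher and 1 lower, and without control 4 the count was 1 higher and 5 lower. Nr1h3, a sterol-sensing nuclear receptor, and Abcg1, a cholesterol exporter, were among the 5, with log2 differences of -0.94 and -0.51 without control 4. Of 7 measured complement genes, 1 was higher and 2 were lower over 8 libraries, and 2 were higher and 4 lower without control 4. The lipid and complement counts stand beside shares of 7.83% and 14.6% over all genes. The chains C1qb and C1qc were lower too without control 4, by -0.68 and -0.77, but overlapped over 8 libraries because control 4 had 1066 and 1057.

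Of 19 measured cell cycle genes, Ccnd1 and Ccnd2, cyclins of the G1 phase, were higher in the first set with no overlap and 0 were lower over 8 libraries, beside 7.83% of all genes with no overlap. Without control 4, Cdk1 and Tyms were lower too. Ccnd1 had 4177 to 4807 in the first set and 2073 to 2943 in the second on its brightest probe, and Ccnd2 had 157 to 173 in the first set and 83.2 to 93.0 in the second. Of 19 measured interferon-stimulated genes, 0 were higher and 1 was lower with no overlap, and 0 were higher and 2 lower without control 4. Of 17 lysosomal genes, 0 were higher and 1 was lower over 8 libraries, and 1 was higher and 4 were lower without control 4. Over all genes the share without control 4 was 14.6%. The one lower over 8 libraries was Ctsc, a protease that activates granule enzymes, at 1014 to 1546 in the first set and 1583 to 1856 in the second.

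The libraries of both sets carried macrophage RNA. Of 18 macrophage markers 17 were measured, and Lyz2, Sirpa and Adgre1, at 11685 to 15786, 14291 to 16560.0 and 6026 to 8360 in the first set, overlapped with 13293 to 19319, 14096 to 17922 and 6583 to 11859 in the second. The summed marker intensity ranged from 70961 to 79409 in the first set and from 79768 to 87856 in the second. In this list Cd14, a co-receptor for bacterial lipopolysaccharide, was higher in the first set, with 1100.03 to 1218 against 337 to 637 in the second set. Mertk, a receptor for dying cells, and C1qa were lower. That made 1 higher and 2 lower of 17 over 8 libraries, beside 7.83% of all genes with no overlap. Without control 4 it was 1 higher and 6 lower, the further ones being Fcgr1, Mrc1, C1qb and C1qc, beside 14.6% of all genes with no overlap. In arrays of whole cultures, fewer cells of a type and less RNA per cell cannot be told apart.

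Few markers of other cells passed the intensity minimum, and the brightest were in the erythroid and megakaryocyte, osteoclast and endothelial lists. No gene of the T cell, NK cell or stromal lists passed the intensity minimum (0 measured in each). The mast cell, basophil and eosinophil list had 2 of 9 genes measured, Kit and Cpa3, and both were higher in the first set with no overlap. Kit, a growth factor receptor of mast cells and progenitors, had 186 to 319 in the first set and 109 to 146 in the second, and the summed level of these 2 genes ranged from 288 to 422 in the first set and from 191 to 230.4 in the second. The dendritic cell list had 2 of 8 genes measured, summing to 270 to 289 in the first set and 215 to 291 in the second. The B cell list had 1 measured gene, Cd22, at 88.3 to 97.2 in the first set and 104 to 160.4 in the second. Of the neutrophil list, 2 of 10 genes were measured, and S100a9, a calcium-binding protein of granulocytes, was higher at 104 to 124 in the first set and 82.4 to 94.2 in the second. Of the erythroid and megakaryocyte list, 2 of 8 were measured. They summed to 3576 to 4980 in the first set and 4689 to 7243 in the second. Epor, the erythropoietin receptor, was dim and lower, at 85.4 to 96.0 in the first set and 100.4 to 109 in the second. The other gene, which overlapped, made up nearly all of the sum. Of the osteoclast list, 4 of 8 were measured, with 1 higher over 8 libraries and 3 higher without control 4. Their summed level ranged from 1328 to 1435 in the first set and from 1155 to 1613 in the second. The one higher over 8 libraries was Dcstamp, a protein of cell fusion, at 159 to 178 in the first set and 90.4 to 122 in the second. The monocyte and endothelial lists had 1 measured gene each, and both overlapped over 8 libraries, while the endothelial one was higher without control 4. The endothelial gene had 519 to 597 in the first set and 402 to 533 in the second. Xist, which is made from the inactive X chromosome, ranged from 1090.4 to 3038 in the first set and from 911 to 5378 in the second and overlapped. Beside the counts of these lists, 7.83% of all genes had no overlap over 8 libraries and 14.6% without control 4. Each list held few measured genes, and the part of these markers in the set differences was not tested.

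The genes with a 2-fold gap lay close together in places. On chromosome 17, 7 of 424 measured genes had such a gap, and 13.4% of its genes had no overlap between the sets, beside 7.83% over all chromosomes. Chromosomes 7 and 4 followed with 11.7% and 10.2%, and without control 4 the shares were 21.7%, 18.1% and 20.1% on chromosomes 17, 7 and 4, beside 14.6% over all. Chromosome 4 held 4 of the 24 genes, with Necap2 and Fblim1 lying 5 measured genes apart and Pdpn 9 further on. H2-Ab1, H2-Aa and H2-Eb1 were next to each other among measured genes on chromosome 17. D17H6S56E-5 followed 17 genes after H2-Eb1, Abhd16a another 5 after that and Vav1 another 128 along, while Myo1f lay 29 genes before H2-Ab1.

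**Figure D4:**
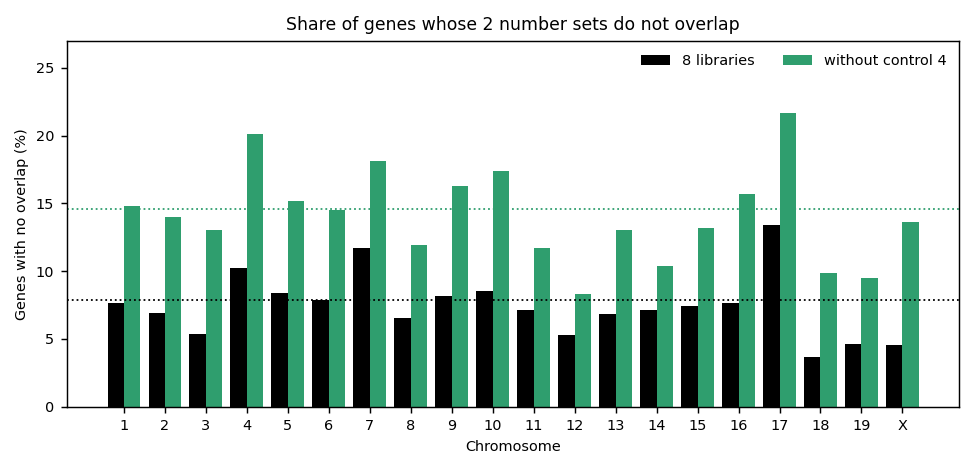
Share of measured genes on each chromosome whose 2 number sets do not overlap, in percent, over 8 libraries (black bars) and without control 4 (green bars). Dotted lines mark the shares over all genes, 7.83% and 14.6%. Chromosome 17 has the tallest bar in both colours, at 13.4% and 21.7%.

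The neighbourhood of Fcer1g showed both directions. Without control 4, 10 of the 20 measured genes nearest to it had no overlap between the sets, 5 higher and 5 lower in the first set, and over 8 libraries 4 had none. Its direct neighbour Tomm40l was higher by 0.81 and the neighbour on the other side, B4galt3, lower by -0.82 on the log2 scale without control 4. Fcgr3, Fcgr4 and Fcgr2b, with differences of -1.20, -0.96 and -1.12, were 4, 5 and 6 genes away from it on the same chromosome. Cd48 lay 13 genes to the other side. Around H2-Aa 9 of 20 neighbours had no overlap without control 4, 8 higher and 1 lower, and around Necap2 it was 8, with 6 higher and 2 lower. Around Psmd8 it was 7, with 3 higher and 4 lower, and Mrps12, a protein of the mitochondrial ribosome with a difference of 1.73, lay 10 genes away. Around Vav1 it was 4, with 2 higher and 2 lower, and around Hal 4, with 1 higher and 3 lower, among them Amdhd1. Beside these counts, 14.6% of all genes had no overlap without control 4 and 7.83% over 8 libraries. The counts around Vav1 and Hal lie nearest to the share without control 4.

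**Figure D5:**
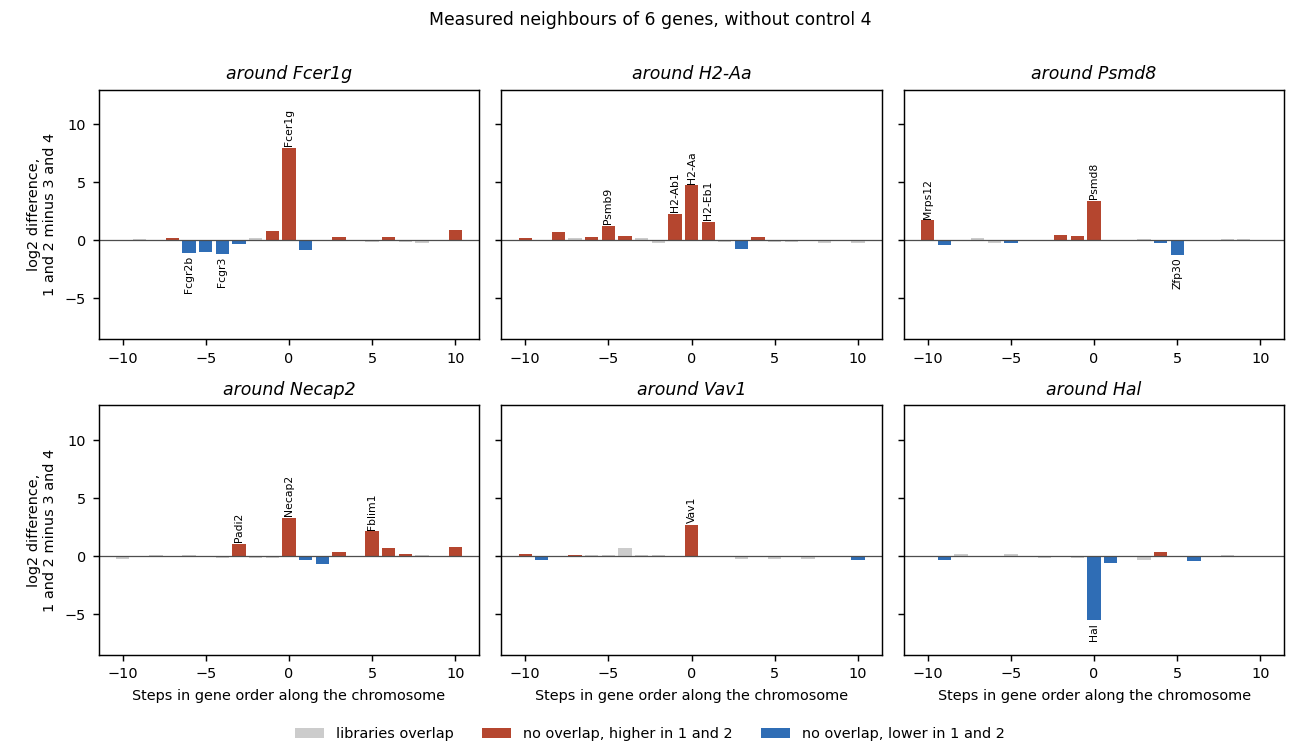
Log2 difference, libraries numbered 1 and 2 minus those numbered 3 and 4 without control 4, for the 10 measured genes on either side of 6 genes, by steps in gene order along the chromosome. Red and blue bars are genes with no overlap between the sets, higher and lower in the first set, and grey bars are genes that overlap. The tall Fcer1g bar stands beside Fcgr3 at -1.20 and Fcgr2b at -1.12, and Hal has no neighbour past 1 on either side.

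Most genes overlapped between the number sets. The median absolute log2 difference over all genes was 0.15, and 0.10 without control 4. Over all kept probes, the mean correlation between libraries of one set was 0.957 (12 pairs), and between libraries of different sets 0.951 (16 pairs). Without control 4 it was 0.987 within sets and 0.980 between them, with ranges of 0.977 to 0.996 and 0.971 to 0.985, and leaving out the 24 genes as well brought the mean between sets to 0.984. Control 4 stood apart from all other libraries, where 19.4% of probes lay 2-fold or more away from the other libraries' mean, a share of 0.26% to 0.749% elsewhere. Of the sum of squares over all kept probes, 19.7% lay between the number sets, 13.9% between the labels, 13.3% in their interaction and 53.1% between libraries of the same label and set. Each of the first 3 terms has 1 of 7 degrees of freedom, and without the 24 genes the share between the number sets was 15.85%.

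The label was then tested with the number set held in the model, a question the grouping leaves free. No probe differed between VAV ko and control (0 of 13479, 0%, at a limma adjusted p under 0.05), while 41 had an unadjusted p under 0.05 and the lowest adjusted p was 0.778. The highest of the 3 genes with the smallest p was Mamdc2, at a log2 difference of 0.40 (95% confidence interval 0.08 to 0.72, limma adjusted p = 0.778). Its intensity was 229, 196, 168 and 170 in VAV ko 1 to 4 and 182, 175, 141 and 111 in control 1 to 4. Lig3, a DNA ligase, was lowest with -0.43 (95% confidence interval -0.77 to -0.08, limma adjusted p = 0.778). The other named genes were Gmppb and Afg3l2, higher by 0.39 and 0.34, and Ninl and Atl3, lower by -0.37 and -0.36, and none of them passed. The 95% interval of the label difference had a median half-width of 0.391 over probes, and 0.262 without control 4.

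Within each number set the label gave no call either. Within the first set, 0 of 13479 probes (0%) passed and 18 had an unadjusted limma p under 0.05. Within the second set, 0 (0%) passed and 363 had an unadjusted p under 0.05. The interaction of label and set called 0 (0%), with 216 at an unadjusted limma p under 0.05 and a lowest adjusted p of 0.817. Of the genes with the smallest p in the first set, Ccnd1 on a dimmer probe had 452 and 333 in VAV ko 1 and 2 and 240 and 233 in control 1 and 2. Xlr4a, an X-linked gene, had 204 and 234 in VAV ko 1 and 2 and 423 and 580.2 in control 1 and 2. In the second set, Ifit2, an interferon-induced gene, had 225 and 361 in VAV ko 3 and 4 and 529 and 568 in control 3 and 4, which did not pass (limma adjusted p = 0.505).

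The 24 genes with a 2-fold gap were all without a label call in the 4 tests. That was 0 of 24 in each, and 0 of 24 at an unadjusted limma p under 0.05. Of all 13479 probes 0 were called, and 41, 18, 363 and 216 had an unadjusted limma p under 0.05. The order is label, first set, second set and interaction. The gap had to hold in both labels, which disfavours genes with a label difference. These counts for the 24 genes thus follow in part from their choice, and no conclusion is drawn from them. The median label difference of the 24 genes was -0.04 with the set in the model, -0.05 in the first set and 0.02 in the second. The largest absolute value with the set in the model was 0.29. For Fcer1g the label difference was -0.09 in the first set (95% confidence interval -0.50 to 0.33) and -0.04 in the second (-0.46 to 0.37). Without control 4, 1 probe was called within the second set: Cd300ld was higher in VAV ko 3 and 4 than in control 3, by 2.09 (log2, limma adjusted p = 0.00722). That contrast has 1 control library, assumed to vary like the others, and control 4 at 725 lay above VAV ko 3 and 4 at 611 and 582.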

How the data were processed

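Total RNA of bone marrow macrophages was extracted with Trizol, cleaned on columns and labelled with biotin for Illumina arrays, per the labels' protocols. The values used are linear intensity as the authors deposited it, for 45281 probes on 8 arrays, with the same median (86.2), lowest (68.1) and highest (26278) value on every array, as quantile normalization leaves. Software and background treatment: not given in the sources used here. Another table, whose 8 per-sample columns carry names found in no label, was left out. The number of arrays limits the precision.

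Genes were named from the platform annotation with symbols from RefSeq (GRCm38.p6): 34885 probes had 1 gene, 18 several and 10378 none, 0 symbols changed and 78 were not matched. RefSeq also gave gene order and promoters. Values were corrected with normexp (offset 50) and put on the log2 scale in limma 3.58.1 under R 4.3.3, and probes of at least 100 on at least 4 arrays were kept (13479 probes, 7982 genes). A gene was its kept probe with the highest mean. Intensities and gaps are on the deposited scale and log2 differences on the corrected scale, which spread values more widely than deposited log2 values. The median half-width of the label difference's confidence interval over kept probes was 0.391 on the corrected scale and 0.346 on deposited log2 values. Label differences were tested with lmFit and eBayes, with Benjamini-Hochberg adjustment over kept probes at 0.05, in fits checked on simulated data. Figures were drawn with matplotlib 3.10.9 under Python 3.11.15.

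The library grouping, the 30 gene lists and the rule for named genes were chosen with earlier results of these data known. One of these lists (1 of 30) is not reported. The rule took Vav1, Vav2 and Vav3, every gene with a 2-fold gap over 8 libraries, up to 10 more that had one only without control 4, the 3 genes just under it, the extreme members of each list, and the genes called by a label test or, where none was, the 3 with the smallest p in each direction. One unnamed gene was skipped (1 of the 6 added without control 4). Other list members are given as their brightest or best known members, chosen after their values were seen.

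Alternatives were the background offset, the deposited log2 values, the intensity filter, the gap size, the fit settings, the title number as a block, and leaving out each library. Whether title numbers pair libraries was not settled. Deviations from the label and set means correlated at -0.323 between libraries numbered 1 or 2 and at 0.064 between those numbered 3 or 4. With 2 libraries of a label in each set, each set gives only 1 such value. Deviations from the label means alone correlated at 0.463 for number 1, -0.172 for number 2, 0.137 for number 3 and 0.131 for number 4.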

Additional observations from a re-analysis of the deposited data

Results flagged for a closer look

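Among 34 named genes, each number set of 4 libraries was examined for 1 value far from the other 3, which made 68 checks and gave 4 such values. Chance alone gives such a value in about 1 in 20 groups. Vav3, an exchange factor related to Vav1, had 1251 in control 2, beside 1066 to 1083 in the other libraries of the first set. Cd300ld had 1418 in VAV ko 2, beside 1372.3 to 1375.4 in the others of that set, a small distance in a tight group. Atp10d had 553 in control 4, beside 316.8 to 352.4 in the other libraries of the second set. Fcgr3 had 2976 in control 4, beside 6923 to 7662, so that control 4 lay with the first set for this receptor. Thus 2 of the 4 values were in control 4, the library that stood apart over all probes. Fcgr3 was named because it had a 2-fold gap only without control 4, so that rule favours an outlying value there. For 68 checks, 4 such values is about what 1 in 20 gives.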

How the results depend on the processing

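An offset of 16 after normexp, with the gap taken on that scale, gave 40 genes with a gap, 12 of them lower in the first set, and 105 with a 2-fold mean difference and no overlap, because the smaller offset stretches dim values. With the offset of 50 for the gap, chosen after seeing the data, the count was 29. Requiring 100 on all 8 arrays gave 14 with a gap (12 higher and 2 lower) and 45 with a 2-fold mean difference, since it drops genes that are dim in one set. A 1.5-fold gap gave 53 genes and a 4-fold gap 9. Leaving out each library in turn gave 24 to 30 genes with a gap, 20 to 24 higher and 4 to 6 lower; these counts cannot fall, because removing a library can only widen a gap. It gave 60 to 82 with a 2-fold mean difference. The difference in mean correlation within and between sets was 0.0055, and 0.0079 without control 4. The label tests gave 0 calls with the set in the model, 0 within the first set, 0 to 7390 within the second and 0 to 4771 for the interaction. The high ends came without control 3, which leaves control 4 as the lone control of the second set, assumed to vary like the rest, and 1 call within the second set came without control 4. With the title number as a replicate block the label test gave 0 calls, 27 probes at an unadjusted p under 0.05 and a lowest adjusted p of 0.833, and with the numbers 1 and 2 crossed in VAV ko, chosen after seeing the data, it gave 0, 33 and 0.806. The other settings of the label tests, such as array weights, no filter and the label alone, gave 0 calls. Of the recomputed values of named genes 426 moved by less than 1 SD and 39 by more, and of list medians 363 and 13. The array has no detection p-values in the table used, so dim levels near 86.2 cannot be told from background.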
